A study of Homo sapiens with 60 samples.

Results

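The 37 genes described here encode proteins that license replication origins, open and copy DNA at the fork, supply its nucleotides or pack the new strands into chromatin. They were taken by symbol from a table of 29744 genes counted in HCT116 spheroids, which are small balls of cells of an established human line from a colorectal carcinoma. Each symbol was found in 1 row, and all 37 genes passed the filter on low counts, as did 11298 genes in the whole table.

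By its design, the study compared gene expression after different metabolites, with and without a later period in a medium lacking nutrients. Spheroids were left untreated or were given 0.1 µM hemin, 1 µM of butyrate, kynurenine or kynurenic acid, or hemin together with kynurenine, between day 1 and day 8 after seeding in agarose moulds. The titles call the 5 libraries of a group biological replicates, and nothing says that they came from separate cultures, so that the p-values speak only of the spread among these samples, which may be technical. Each of the 6 treatments was sampled in Medium 1 and in Medium 2, with 5 libraries a group and 60 in all. By the study design, 1 of the media stands for direct sampling and the other for 3 h without nutrients, but no label says which, and the treatment field of the labels says untreated and nutrient-rich for all 60 samples alike. For the combination the titles give 1 µM, written beside kynurenine, and no separate dose of hemin. All groups share the high-glucose culture medium with 10% serum, and butyrate is a short-chain fatty acid of gut bacteria, hemin the oxidised iron ring of haemoglobin, and kynurenine and kynurenic acid tryptophan products.

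DNA replication starts in G1 phase, when the origin recognition complex, CDC6 and CDT1 load the MCM2-7 helicase onto DNA. Cyclin E with CDK2, and the factors CDC45, GINS and MCM10, then convert loaded helicases into moving forks, at which PCNA, its loader RFC and the DNA polymerases copy the strands. Many of these genes are transcribed in a burst around the entry into S phase by E2F factors, which bind DNA sites rich in T followed by G and C. In bulk RNA, a smaller share of cells in S phase and less RNA in each such cell cannot be told apart.

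Promoter windows, from 250 bases before to 50 after the annotated start, were available in RefSeq (GRCh38.p14) for 34 of the 37 genes, all but MCM4, MCM5 and CCNE2. They were searched on both strands for 4 forms of the E2F site, TTTCCCGC, TTTGGCGC, TTTCGCGC and TTTGCCGC, which can overlap on opposite strands. At least 1 form was present in 16 of 34 windows (47.1%), against 5.68% of the 8403 windows of tested genes and 3.33% of all 27305 windows. The 5 windows below show a gene with a large difference between media and a palindromic match next to its start (MCM2), another such gene (CDC6), a subunit of the same helicase with 4 matches and no called difference (MCM6), a gene with a match that was lower in Medium 2 (POLE), and a gene with no match that was higher (RRM2). Capitals mark E2F matches, and in RRM2 the 3 copies of CCAAT. The windows lie at chr3:127598161-127598460 on the plus strand (MCM2), chr17:40287629-40287928 on the plus strand (CDC6), chr2:135876394-135876693 on the minus strand (MCM6), chr12:132687293-132687592 on the minus strand (POLE) and chr2:10122489-10122788 on the plus strand (RRM2).
MCM2: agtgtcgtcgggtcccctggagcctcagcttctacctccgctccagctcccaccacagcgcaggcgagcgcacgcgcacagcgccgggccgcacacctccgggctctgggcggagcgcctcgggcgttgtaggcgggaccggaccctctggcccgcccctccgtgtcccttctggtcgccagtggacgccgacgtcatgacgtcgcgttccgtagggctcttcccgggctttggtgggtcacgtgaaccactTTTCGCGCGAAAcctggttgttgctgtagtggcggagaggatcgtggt
CDC6: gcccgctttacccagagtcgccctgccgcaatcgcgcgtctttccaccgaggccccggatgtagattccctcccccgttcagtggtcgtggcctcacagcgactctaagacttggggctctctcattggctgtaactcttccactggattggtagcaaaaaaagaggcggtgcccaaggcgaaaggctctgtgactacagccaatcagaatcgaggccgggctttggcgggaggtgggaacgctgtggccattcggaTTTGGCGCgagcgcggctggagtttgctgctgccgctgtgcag
MCM6: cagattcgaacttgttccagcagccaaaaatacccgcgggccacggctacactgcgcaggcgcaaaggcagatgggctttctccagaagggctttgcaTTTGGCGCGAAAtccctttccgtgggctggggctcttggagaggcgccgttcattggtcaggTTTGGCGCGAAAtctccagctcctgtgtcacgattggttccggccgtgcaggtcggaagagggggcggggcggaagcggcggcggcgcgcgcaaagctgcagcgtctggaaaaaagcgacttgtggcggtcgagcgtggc
POLE: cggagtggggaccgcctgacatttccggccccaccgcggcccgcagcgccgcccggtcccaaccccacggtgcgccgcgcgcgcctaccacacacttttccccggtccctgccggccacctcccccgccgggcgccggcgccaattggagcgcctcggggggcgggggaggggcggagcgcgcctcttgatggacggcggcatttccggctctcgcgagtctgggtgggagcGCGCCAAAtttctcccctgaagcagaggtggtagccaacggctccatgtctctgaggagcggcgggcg
RRM2: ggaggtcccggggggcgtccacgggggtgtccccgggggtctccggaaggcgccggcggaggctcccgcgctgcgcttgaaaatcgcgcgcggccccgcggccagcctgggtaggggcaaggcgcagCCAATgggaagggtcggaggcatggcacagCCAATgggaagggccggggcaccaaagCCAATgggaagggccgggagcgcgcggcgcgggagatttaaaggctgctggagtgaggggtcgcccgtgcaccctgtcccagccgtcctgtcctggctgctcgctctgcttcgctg

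The matches in MCM2 start at positions 3 and 7, counted from 1 at the annotated start, and that in CDC6 at position 8. The 4 in MCM6 start 152, 148, 90 and 86 bases before the start and overlap in pairs, and that in POLE starts 18 bases before it. Matches were found in members of each direction of the difference between media described next. They were present in 7 of the 17 windows of members that were higher in Medium 2 (41.2%), 2 of 4 of those that were lower and 7 of 13 of those that were not called (53.8%). CCAAT, the core of the NF-Y site, was present in 20 of 34 windows (58.8%) against 36.8% of those of tested genes. TTTGAA, the core of the element found in many mitotic promoters, was present in 1 of 34 (2.94%), against 9.31% of tested genes and 66.7% of 24 windows from a list of mitosis genes. A match is a string of letters and not a measured binding site, and its part in any difference was not tested.

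Counts come from the 3' ends of transcripts, so that a level in CPM, a gene's count relative to the TMM-adjusted total of its library, does not grow with gene length. Library totals ran from 1346135 to 3083231 counts, with medians of 1915333 in Medium 1 and 1858205 in Medium 2. The 37 genes took 0.397% to 0.488% of a library's counts in Medium 1 and 0.403% to 0.532% in Medium 2. Mean levels over the 60 libraries were highest for PCNA (439.8 CPM), RRM2 (425.4 CPM) and RRM1 (383.9 CPM) and lowest for POLD1 (5.45 CPM) and POLE (15.7 CPM), so that POLD1 values rest on few counts. Epithelial markers fit the line, with means of 371.7 CPM for EPCAM and 362.9 CPM for KRT19. Of 6 fibroblast markers, COL1A2, COL3A1 and LUM had no counts, and the sum of the list, nearly all COL1A1, was 5.45 to 14.5 CPM in Medium 1 and 0 to 9.38 CPM in Medium 2; its part in the results was not tested. Immune and endothelial lists summed to at most 4.49 and 2.43 CPM in any library. The libraries of Medium 1 lie in wells A1 to F4 of the plate and those of Medium 2 in wells G4 to D8, so that medium and plate position cannot be told apart. The libraries in wells B2 (butyrate, Medium 1) and A7 (kynurenine, Medium 2) had the largest distances from their group means, 0.483 and 0.57 as the root mean square over genes on the log2 scale, against at most 0.412 in any other library, and A7 held the lowest PCNA (284.3 CPM), TYMS (151.6 CPM) and FEN1 (83.93 CPM) of all libraries.

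Between media, part of the members in most roles were higher in Medium 2, and the large polymerase subunits were lower. In the average described next, 6 of 11 licensing genes and 3 of 4 nucleotide supply genes were called higher. So were 3 of 5 genes of helicase activation and 3 of 6 of the clamp and its loader. Averaged over the 6 treatments, 30 libraries against 30, edgeR's quasi-likelihood test called 18 of 37 members higher and 4 lower at an adjusted p below 0.05, and left 15 uncalled; without wells B2 and A7 the counts were 19 and 5. Among all tested genes 46.1% were called, 22.8% higher and 23.3% lower. The median log2 fold change of the members was 0.17, beside a median of -0.0045 over all genes. The TMM scaling factors were 0.965 to 1.11 in Medium 1 and 0.918 to 1.01 in Medium 2. Levels in CPM use these factors, and so do the overlaps of libraries and the orders of group means given below. Those overlaps and orders were not recomputed under another scaling. When libraries were scaled by their total counts alone, the split became 14 higher and 9 lower, with 18 calls shared. Among all tested genes it became 1315 higher and 4162 lower. The median of all genes moved to -0.119 and that of the members to 0.057. GINS2, LIG1, MCM7 and PCNA then lost their call, and RFC1, RFC3, RFC4, CCNE1 and MCM3 gained one.

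**Figure D1:**
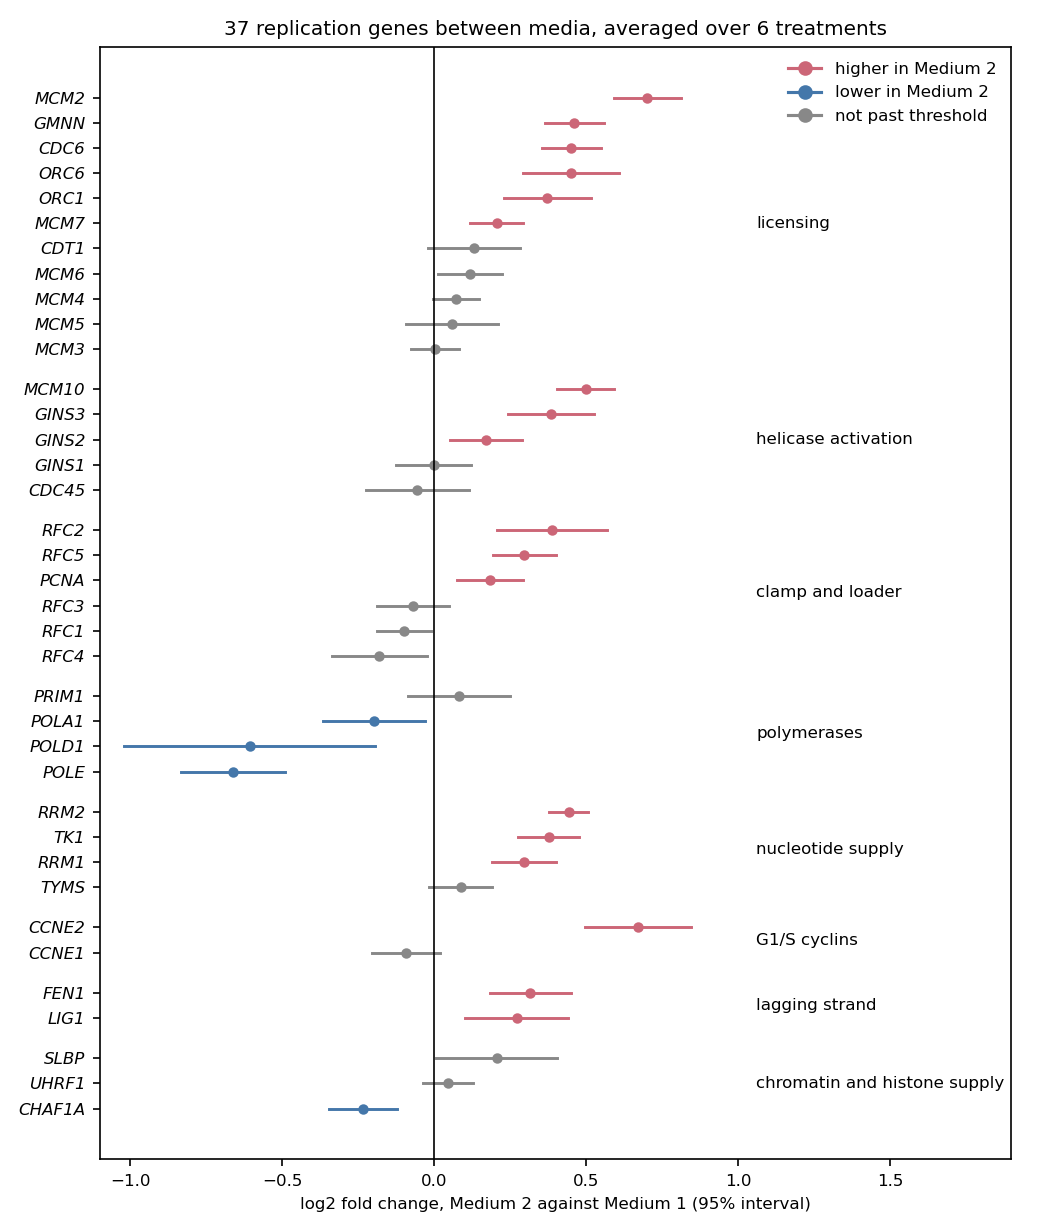
Log2 fold change of each of the 37 genes in Medium 2 against Medium 1, averaged over 6 treatments (points), with 95% intervals (lines), grouped by role; colours give the edgeR call. MCM2 (0.70) and CCNE2 (0.67) lie farthest to the right, and POLE (-0.66) and POLD1 (-0.61) farthest to the left.

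Among the 11 licensing genes, 6 were higher and none lower. MCM2, a subunit of the helicase, ran from 80.06 through a median of 144.7 to 173.3 CPM in Medium 1 and from 149.6 through 232.3 to 289.9 CPM in Medium 2, and 29 of the 30 libraries of Medium 2 lay above the highest of Medium 1. Its log2 fold change was 0.70 ± 0.055 (SE, adjusted p = 1.76e-16). GMNN, geminin, the inhibitor of CDT1, had medians of 123.1 and 171.6 CPM with ranges of 96.84 to 181.7 and 142.5 to 217.8 CPM, which overlapped, and rose by 0.46 (SE 0.048, adjusted p = 4.56e-12). CDC6, a helicase loader, ran from 70.43 to 125.1 CPM (median 98.86) in Medium 1 and from 116.2 to 174.8 CPM (median 135.9) in Medium 2, where 22 libraries exceeded every library of Medium 1, and rose by 0.45 (SE 0.049, adjusted p = 1.41e-11). ORC6 rose by 0.45 (SE 0.079) and ORC1 by 0.37 (SE 0.071), both subunits of the origin recognition complex, and MCM7 by 0.21 (SE 0.044).

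The other 4 helicase subunits and CDT1 were not called. MCM4, the most abundant licensing gene that was not called, had medians of 252.5 CPM in Medium 1 and 264.7 CPM in Medium 2, and its difference of 0.072 had a 95% interval from -0.0036 to 0.15. MCM3, with medians of 205.7 and 204.9 CPM, differed by 0.0031, and its interval of -0.077 to 0.083 excludes a difference of the size seen for MCM2. Under total-count scaling the values of MCM3, MCM4, MCM5, PRIM1, TYMS and UHRF1 turned negative, and that of MCM3, at -0.11, was called lower (adjusted p = 0.0181). MCM5 and MCM6 had values of 0.059 and 0.12, and CDT1, the loader that geminin blocks, one of 0.13, with an interval of -0.021 to 0.28.

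Among the 5 genes of helicase activation, 3 were higher. MCM10, which helps the loaded helicase to start, ran from 94.46 to 147.4 CPM (median 127.4) in Medium 1 and from 135.9 to 230.5 CPM (median 176.6) in Medium 2. The ranges overlapped only at their edges, with 28 libraries of Medium 2 above all of Medium 1, and the log2 fold change was 0.50 (SE 0.047, adjusted p = 1.42e-13). GINS3 rose by 0.38 (SE 0.070) and GINS2 by 0.17 (SE 0.059), while the third measured subunit of that complex, GINS1, had a value of -0.0017 with an interval of -0.13 to 0.12. CDC45, the partner of GINS and MCM at the fork, had medians of 40.58 and 40.98 CPM and a value of -0.055.

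The sliding clamp and its loader were split. PCNA, the clamp itself, had medians of 414.7 and 469.0 CPM and rose by 0.18 (SE 0.054, adjusted p = 0.0039). The small loader subunits RFC2 and RFC5 rose by 0.39 (SE 0.090) and 0.30 (SE 0.052). RFC1, the large subunit and the most abundant uncalled gene of this role, had medians of 204.8 and 194.0 CPM and a value of -0.099, RFC4 one of -0.18 and RFC3 one of -0.070, none of them past the threshold (adjusted p = 0.0602, 0.0515 and 0.354).

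The polymerase genes went the other way: 3 of 4 were lower and none higher. POLE, the catalytic subunit of the leading strand polymerase, ran from 11.23 to 26.26 CPM (median 18.96) in Medium 1 and from 7.32 to 17.57 CPM (median 11.67) in Medium 2, where 13 of 30 libraries lay below every library of Medium 1. It fell by 0.66 on the log2 scale (SE 0.085, adjusted p = 2.80e-09). POLD1, the catalytic subunit of the lagging strand polymerase, had medians of 6.80 and 3.77 CPM and fell by 0.61 (SE 0.21, adjusted p = 0.0130). POLA1, of the primase complex, had medians of 48.36 and 39.95 CPM and a value of -0.20 (adjusted p = 0.048), a call that 40 of the 60 fits with 1 library left out did not make. PRIM1, the primase subunit of the same complex, had medians of 20.43 and 23.02 CPM and a value of 0.083.

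Of the 4 nucleotide supply genes, 3 rose. RRM2, the regulated subunit of ribonucleotide reductase, ran from 310.5 to 396.8 CPM (median 361.6) in Medium 1 and from 392.5 to 610.6 CPM (median 485.4) in Medium 2. All but 1 library of Medium 2 lay above the whole of Medium 1, and the log2 fold change of 0.44 (SE 0.032) had the smallest adjusted p of the 37 genes, 5.64e-18. RRM1, the partner subunit, rose by 0.30 (SE 0.053), and TK1, the salvage enzyme thymidine kinase, by 0.38 (SE 0.050), from a median of 85.18 to one of 109.8 CPM. TYMS, thymidylate synthase, had medians of 197.9 and 209.9 CPM and was not called (0.087, interval -0.017 to 0.19).

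Both lagging strand genes rose, FEN1, the flap nuclease, by 0.32 (SE 0.067) and LIG1, the ligase that joins Okazaki fragments, by 0.27 (SE 0.085). Of the chromatin genes, CHAF1A, a histone chaperone subunit at the fork, fell by 0.23 (SE 0.056, adjusted p = 0.00041), from a median of 59.94 to one of 51.1 CPM, while UHRF1, which reads hemimethylated DNA, and SLBP, which binds histone mRNA, had values of 0.045 and 0.21 and were not called. The E cyclins differed from each other. CCNE2 ran from 6.72 to 20.31 CPM (median 12.07) in Medium 1 and from 10.96 to 26.47 CPM (median 21.8) in Medium 2, with 18 libraries above all of Medium 1, and rose by 0.67 (SE 0.087, adjusted p = 3.66e-09). CCNE1, at medians of 69.94 and 68.22 CPM, had a value of -0.092.

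**Figure D2:**
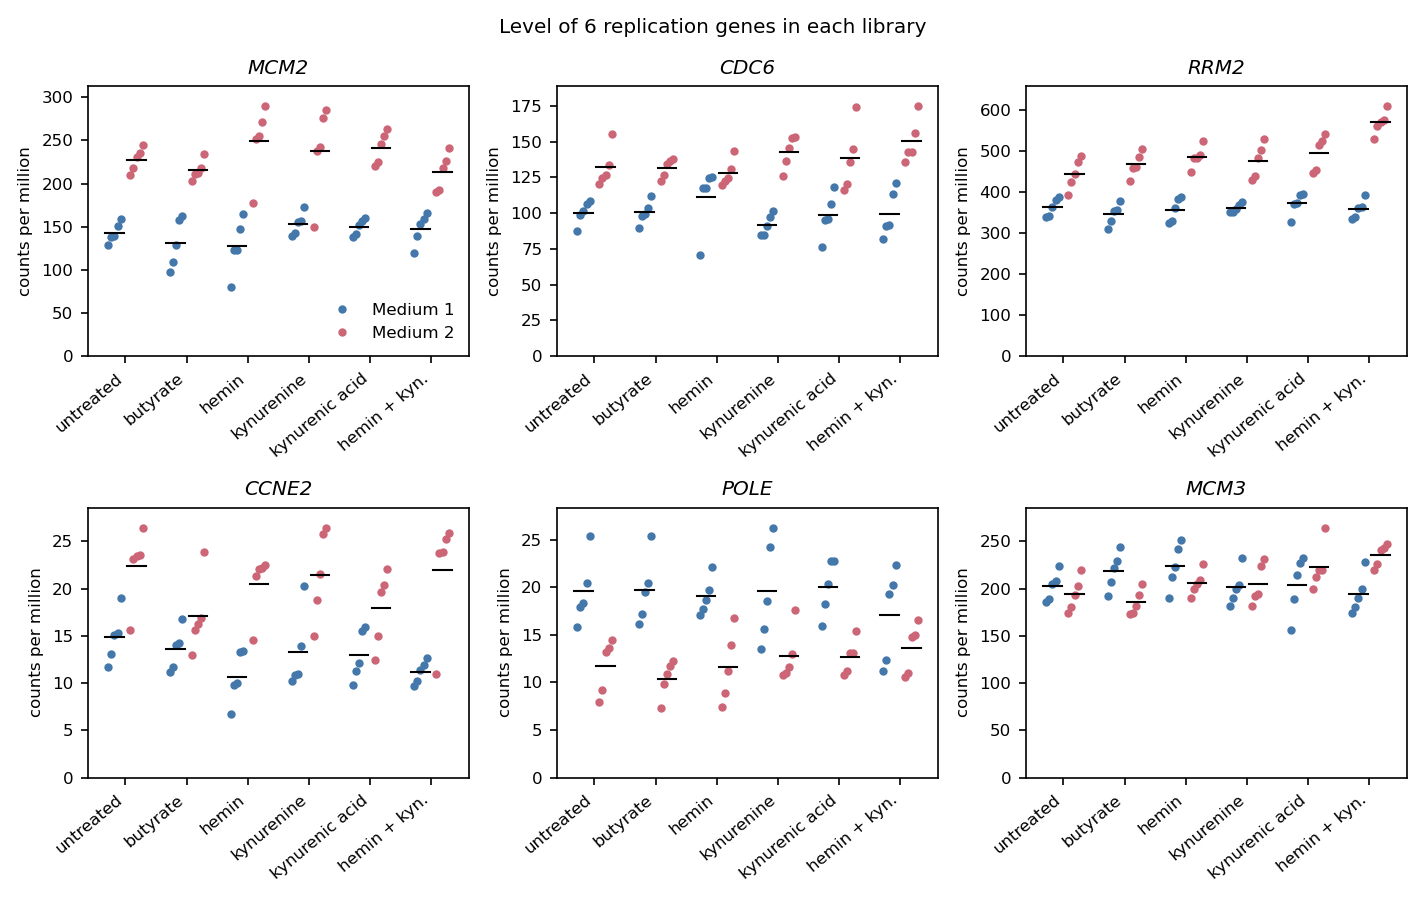
Level in CPM of 6 genes in each of 60 libraries (points; bars are group means), by treatment, Medium 1 in blue and Medium 2 in red. The red group means lie above the blue ones in all 6 treatments for MCM2, CDC6, RRM2 and CCNE2 and below them for POLE, while those of MCM3 lie on both sides.

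The ratio of one subunit to the others of its complex within a library, taken as log2 of CPM plus 1, depends little on how libraries are scaled. The same ratio was taken for the E cyclins, and for POLA1, POLD1 and POLE. These are related genes and not subunits of a shared complex. Of 20 such log2 ratios, compared between media by a two-sided permutation test that reassigned the medium within each treatment 100000 times, 13 passed after Benjamini-Hochberg adjustment. MCM2 against the mean of MCM3 to MCM7 moved from -0.027 ± 0.28 (SD, n = 30) in Medium 1 to 0.58 ± 0.28 in Medium 2, a difference of 0.61 with the same sign in all 6 treatments (permutation p = 1e-05, the smallest it can give, adjusted p = 6.67e-05). MCM3 and MCM4 moved by -0.22 and -0.14 against their partners (permutation, adjusted p = 6.67e-05 and 0.000571), and the tests for MCM5, MCM6 and MCM7 did not pass. Ratios within a complex are complementary, so that the rise of MCM2 enters those of its partners and the 13 are not separate results. No such ratios were computed for other genes, so that 13 of 20 has no share over the table to stand beside. Whether unequal movement is particular to these complexes and sets of related genes was not tested. With MCM2 left out of the partners, a comparison added after the data were seen, MCM3 moved by -0.11 (permutation, adjusted p = 0.026 over 5 subunits) and MCM7 by 0.15 (permutation, adjusted p = 0.0428), while MCM4, at -0.024, did not pass (permutation, adjusted p = 0.663). Within RFC, RFC2 moved by 0.42 and RFC5 by 0.29, and RFC4, RFC1 and RFC3 by -0.33, -0.21 and -0.17. Within GINS, GINS3 moved by 0.30 and GINS1 by -0.28, and GINS2 did not pass. CCNE2 relative to CCNE1 moved from -2.46 to -1.75, a difference of 0.715 (permutation, adjusted p = 6.67e-05), and RRM2 relative to RRM1 moved by 0.15 (permutation, adjusted p = 0.0277). POLA1 moved by 0.40 against POLD1 and POLE (permutation, adjusted p = 0.007), and the tests of POLD1 and POLE against their partners did not pass. ORC6 against ORC1 moved by 0.11 and did not pass (permutation, adjusted p = 0.434).

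In the untreated spheroids alone, with 5 libraries against 5, edgeR called 5 members higher and 1 lower, beside 6.38% of all genes, 2.69% higher and 3.69% lower. MCM2 read 128.9, 138, 139.8, 151 and 158.9 CPM in Medium 1 and 209.6, 218.6, 230.4, 235.1 and 244.9 CPM in Medium 2, without overlap, and rose by 0.67 (SE 0.14, adjusted p = 0.00057). MCM10 read 101.7, 105.8, 120, 133.9 and 144.9 CPM against 155.6, 159.8, 164.6, 183.5 and 185.5 CPM, also without overlap (0.49, SE 0.12, adjusted p = 0.0039). CDC6 went from between 87.17 and 108.2 CPM to between 120.6 and 154.9 CPM (0.40, adjusted p = 0.0326), and RRM2 from between 339.5 and 389.4 CPM to between 392.5 and 489.4 CPM (0.29, adjusted p = 0.0126). The groups did not overlap for either gene, nor for GMNN, at 107.6 to 144.1 against 149.0 to 202.1 CPM (0.38, adjusted p = 0.038). POLE read 15.83, 17.95, 18.34, 20.47 and 25.42 CPM in Medium 1 and 7.92, 9.18, 13.19, 13.61 and 14.47 CPM in Medium 2, all lower, and fell by 0.73 (SE 0.21, adjusted p = 0.023). Leaving out 1 library could end the calls of CDC6 (wells A5, C1, D1 or G4), GMNN (A1, B1, B5, D1 or H4) and POLE (A1, B5, D1 or H4), and without D1 the count of higher members was 3. Under total-count scaling MCM2, MCM10 and POLE kept their calls and CDC6, GMNN and RRM2 lost theirs. Whether the narrow gaps of RRM2 and GMNN remain under that scaling was not computed. Over all members, 7 had every untreated library of Medium 2 above every one of Medium 1, against 3.99% of all genes, and 2 had every one below, against 4.46%.

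With butyrate, 4 members were higher and 1 lower (4.51% and 5.37% of all genes, 9.89% together), with kynurenine 6 and 0 (3.73% and 4.28%, 8.01% together), with kynurenic acid 8 and 1 (4.3% and 4.26%, 8.56% together), with hemin 11 and 3 (12.6% and 11.4%) and with hemin plus kynurenine 15 and 0 (8.02% and 8.32%). Under total-count scaling these splits became 3 and 2, 5 and 1, 3 and 2, 6 and 6, and 9 and 2, and that of untreated spheroids 2 and 1. The median of all genes then moved to between -0.083 and -0.17. In the same order, all tested genes then held 295 higher and 890 lower, 248 and 705, 179 and 917, 725 and 2330, and 415 and 1542, and untreated 164 and 716. MCM2, MCM10 and RRM2 were called higher in all 6 treatments, CDC6 in all but hemin, GMNN in all but butyrate, and POLE lower in 4. Some of these single calls were marginal and were lost in several fits with 1 library left out. TK1 with hemin was lost in 8 of 10 such fits. ORC6 with hemin, RRM1 with the combination and FEN1 with kynurenic acid were lost in 7 of 10 each, and CCNE2 with kynurenine in 5. MCM10 with hemin was lost without well D6, E6 or G2. POLE with kynurenic acid was lost in 8 of 10 fits, while its log2 fold change stayed between -0.73 and -0.59. CDC6 with butyrate (without D5, E5, F1, H1 or H5) and GMNN with the combination (without A8, B4, D4, D8 or H7) were lost in 5 of 10 each. The count of higher members with hemin fell to 7 without D6. For 17 members the difference had a positive sign in all 6 treatments, and for POLD1, POLE and CHAF1A a negative sign. The shares of all genes with 1 sign, or with a call, in all 6 treatments are not given, so that these counts do not set the members apart. In 13 members, MCM2, MCM10, CDC6, GMNN, ORC1, ORC6, GINS3, RFC2, RFC5, RRM2, TK1, CCNE2 and FEN1, every group mean of Medium 2 lay above every group mean of Medium 1, against 8.17% of all genes, and in POLE every one lay below, against 9.83% of all genes. The counts by treatment were not tested against each other, and the tests of single members for a different response in the media are given below.

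The combination of hemin and kynurenine had 15 called members between media, beside 14 with hemin alone, and 11 beside 12 under total-count scaling. CCNE2 read 9.69, 10.21, 11.37, 11.96 and 12.67 CPM in Medium 1 and 10.96, 23.82, 23.9, 25.25 and 25.92 CPM in Medium 2, where 1 library lay among those of Medium 1 and the others well above (0.97, SE 0.21, adjusted p = 0.0008). FEN1 read 126.6, 133, 141.9, 146.4 and 163.8 CPM against 199.7, 205.4, 224.8, 234.8 and 266.9 CPM, without overlap (0.67, SE 0.16, adjusted p = 0.0027). RFC2 went from between 17.68 and 34.21 CPM to between 31.4 and 50.18 CPM (0.77, SE 0.22), with slight overlap, GINS2 rose by 0.66 (SE 0.14), and ORC6 by 0.67 (SE 0.19), a call lost without well F4. MCM3 had its only call here (0.28, adjusted p = 0.042), which 9 of 10 fits with a library left out did not make. With hemin alone, the members called lower were POLE, CHAF1A and RFC4. CHAF1A read 52.82, 68.76, 73.34, 79.76 and 85.76 CPM in Medium 1 and 40.49, 44.41, 45.64, 51.06 and 52.8 CPM in Medium 2 (-0.62, SE 0.14, adjusted p = 0.0007), and RFC4 108.8, 162.4, 195.5, 216.5 and 222.5 CPM against 83.06, 106.9, 109.4, 138.7 and 139.6 CPM (-0.64, SE 0.19, adjusted p = 0.0107). For CHAF1A the lowest library of Medium 1, at 52.82 CPM, all but met the highest of Medium 2, at 52.8 CPM. For RFC4 the groups overlapped through 1 library of Medium 1.

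**Figure D3:**
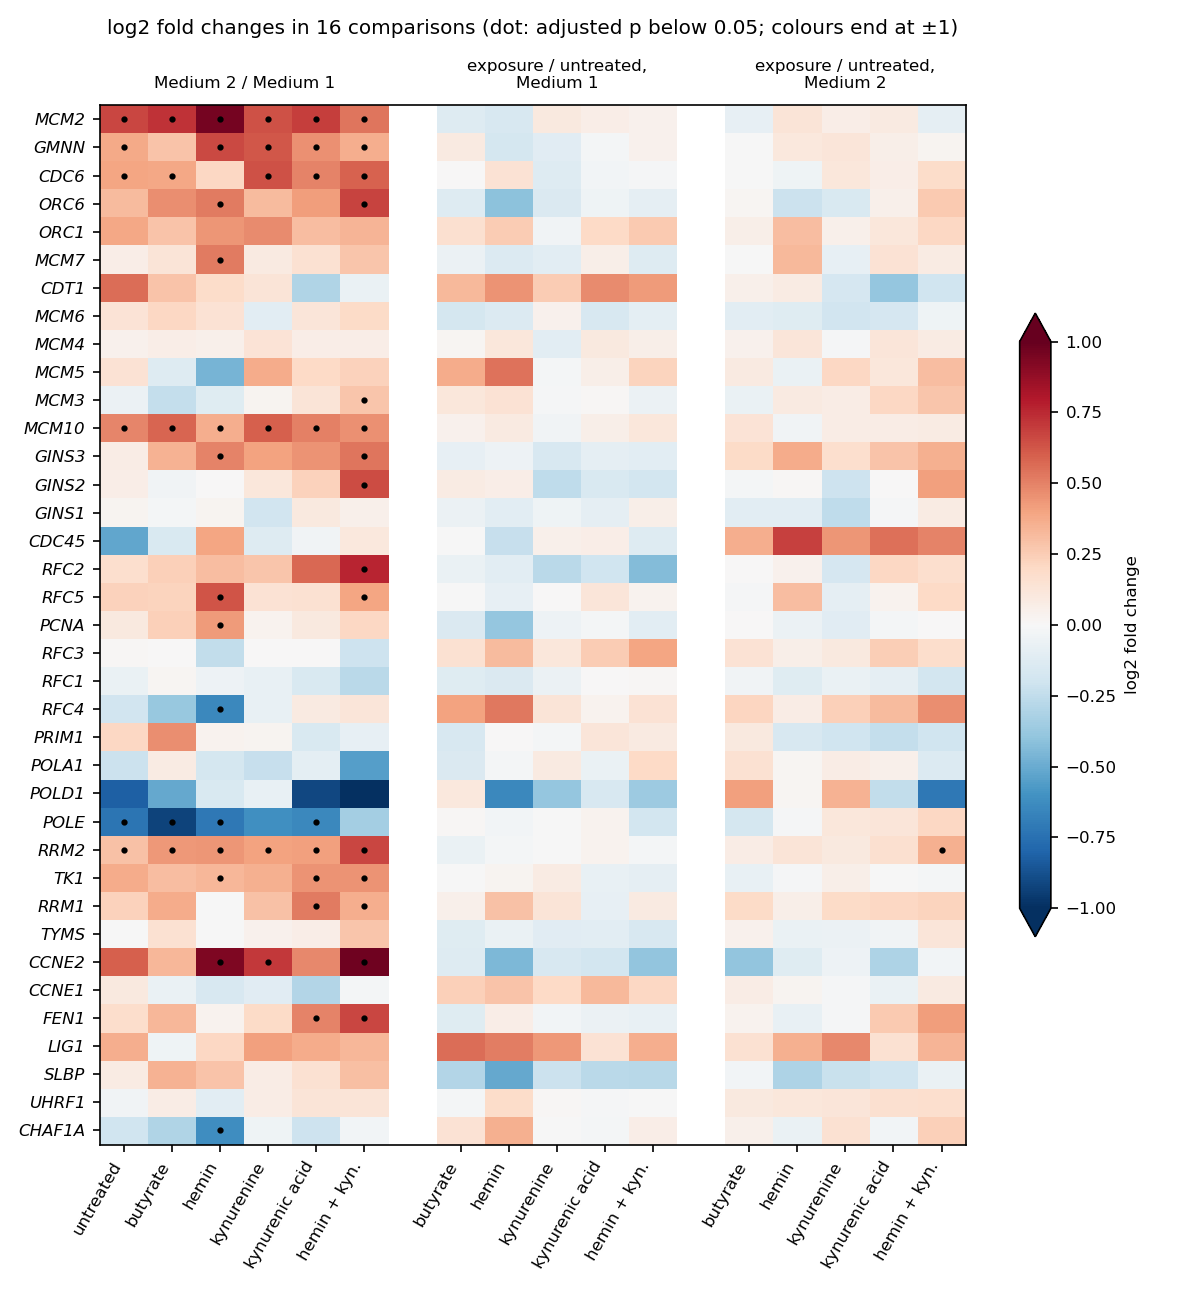
Log2 fold changes of the 37 genes (rows) in the 6 comparisons of media (left block) and the 10 comparisons of an exposure with untreated spheroids (middle and right blocks); dots mark edgeR calls. The left block holds calls in 20 of 37 rows, and the other blocks hold 1, RRM2 with hemin plus kynurenine in Medium 2. The share of all genes with at least 1 call is not given.

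Coding length moved with the medium difference over the whole table, a relation looked at after the polymerase values were seen. Among 10276 tested genes with a coding transcript in GENCODE, Spearman's rho between the length of the longest coding sequence and the log2 fold change was -0.34, and among the 37 members -0.37. With the length of the whole mRNA of that transcript, rho was weaker, at -0.23 over these genes and -0.24 among the members. These correlations run across genes that share the same libraries and are given as descriptions. With genes sorted by coding length into 4 classes of like size, in the shortest class, up to 885 bases, 37.7% were higher and 9.33% lower, and in the longest, from 2259 bases, 11.3% were higher and 41.9% lower. All 4 members that fell belong to the longest class, CHAF1A with 2868 bases, POLD1 with 3399, POLA1 with 4404 and POLE with 6858. Of the 14 members of that class, 5 rose, MCM2 (2712 bases), MCM10 (2625), ORC1 (2583), RRM1 (2376) and LIG1 (2757). MCM2 and MCM4 have coding sequences of the same length, with values of 0.70 and 0.072. In the shortest class 6 of 8 members rose. The part of length in the differences of single members was not tested.

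**Figure D4:**
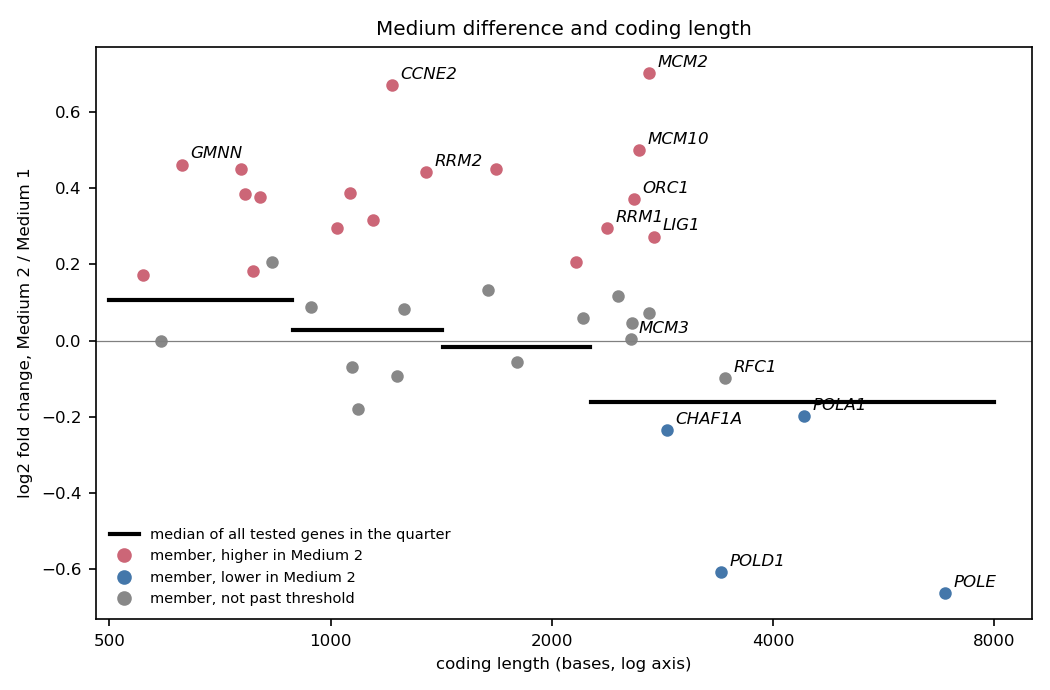
Log2 fold change in Medium 2 against Medium 1, averaged over treatments, against coding length on a log axis, for the 37 genes (points, coloured by call) and as the median of all tested genes in each of 4 classes of coding length (bars). The bars step down from 0.11 to -0.16, POLE and POLD1 lie below the last of them, and MCM2 and MCM10 well above it.

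Differences between exposed and untreated spheroids were small for these genes. Over 10 comparisons with untreated spheroids and 370 tests of members, the median absolute log2 fold change was 0.109, 361 values lay below 0.5 in size, and 359 of the 95% intervals lay within 1 either way. At an unadjusted p below 0.05 there were 37 tests, and 1 passed edgeR's adjusted threshold. That was RRM2 with hemin plus kynurenine in Medium 2, where 0.31% of all genes were higher. RRM2 read 392.5, 424.3, 445.7, 473.1 and 489.4 CPM untreated and 529.7, 562.8, 572.2, 576.6 and 610.6 CPM with the combination, without overlap, and rose by 0.36 (SE 0.078, adjusted p = 0.0137). In Medium 1 the same comparison gave ranges of 339.5 to 389.4 and 336.0 to 394.2 CPM, which overlapped. The difference of the responses between media was 0.37 and did not pass (edgeR adjusted p = 0.290), although DESeq2 called it. Without the library in well A5, H4 or H7, the call in Medium 2 was lost, and over 17 alternatives its adjusted p ran from 0.000202 to 0.109 and its log2 fold change from 0.31 to 0.39.

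No other exposure gave a called member by edgeR. With butyrate 3 members in Medium 1 and none in Medium 2 had an unadjusted p below 0.05 (called among all genes at the adjusted threshold: 0.00885% and 0%), with kynurenine 1 and 2 (0.0354% and 0.0266%), with kynurenic acid 2 and 4 (0% and 0.0177%), with hemin 12 and 4 (0.133%, of which 0.0885% lower, and 0%), and with hemin plus kynurenine 2 in Medium 1 (0.0266%). At the same unadjusted threshold, the share of all genes was 21.5% with hemin in Medium 1, where the 12 members make 32.4%, and 3.27% to 8.54% in the other 8 comparisons. DESeq2 called none in these 9 comparisons either, apart from MCM5 with hemin in Medium 1. MCM5 read 38.74, 39.12, 44.11, 45.23 and 48.75 CPM untreated and 46.09, 58.61, 65.39, 71.66 and 73.35 CPM with hemin, which overlapped in part (0.55, edgeR adjusted p = 0.081). That comparison turned on 1 library: without well G2, edgeR called MCM5, RFC4 and CHAF1A higher, with log2 fold changes of 0.45 to 0.67, and the calls over all genes went from 5 higher and 10 lower to 620 and 585. Well G2 held the lowest CDC6, at 70.43 CPM, and GMNN, at 96.84 CPM, of all libraries, and well F2 of the same group the lowest MCM2, at 80.06 CPM, ORC6, at 18.95 CPM, and CCNE2, at 6.72 CPM.

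CDC45 had its lowest group mean in untreated spheroids of Medium 2, at 25.73, 27.53, 29.72, 32.16 and 36.83 CPM. With hemin in the same medium it read 41.15, 42.28, 51.02, 53.03 and 56.17 CPM, above all untreated libraries, yet the log2 fold change of 0.68 did not pass over all genes (edgeR adjusted p = 0.478). The 5 exposures share these untreated libraries, and their mean against untreated gave 0.51 for CDC45 (adjusted p = 0.392) in Medium 2. For the mean of the 5 exposures, edgeR called no member in either medium (0% and 0.0797% of all genes), and DESeq2 called none. At an unadjusted p below 0.05 there were 4 and 3 members, or 10.8% and 8.11%, beside 8.17% and 7.74% of all genes.

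Whether the response to an exposure differed between media was tested as a difference of differences for 5 exposures and 37 members. None of the 185 tests passed in edgeR, with 13 at an unadjusted p below 0.05 and a smallest adjusted p of 0.233, for CDC45 with hemin (0.91). Among all genes the called share was 0% with butyrate, hemin and kynurenic acid, 0.0177% with kynurenine and 0.0266% with the combination. At the unadjusted threshold, members and all genes held 0% and 4.28% with butyrate, 13.5% and 13.3% with hemin, and 0% and 3.7% with kynurenine. With kynurenic acid they held 5.41% and 4.63%, and with the combination 16.2% and 8.68%. DESeq2 called 1 member, RRM2 with the combination. The median half-width of the intervals of these differences, which are not adjusted for the number of genes, was 0.404 to 0.416. With 5 libraries a group, differences below that size were therefore mostly not detectable even at the unadjusted threshold. Much larger ones did not pass the adjusted threshold either, such as CDC45 with hemin and CDT1 with kynurenic acid (-0.86, edgeR adjusted p = 0.890). The size of difference that would pass after adjustment was not computed.

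Kynurenine and kynurenic acid, the ring-closed product that cells make from kynurenine by transamination, were given at the same dose and time and compared directly in each medium. In both comparisons none of the 37 members passed in edgeR (0.0354% and 0.00885% of all genes did), 1 in each medium had an unadjusted p below 0.05, and DESeq2 called none. These were MCM4 in Medium 1, 0.20 higher with kynurenic acid (adjusted p = 0.9998), and MCM7 in Medium 2, 0.23 higher (adjusted p = 0.803). The 95% interval of the difference lay within 1 log2 unit either way for 36 of 37 members in each medium and within 0.5 for 29 and 26, which bounds the difference and does not show that the compounds act alike.

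Genes around the 37 in the same pathways showed both directions between media, as did all genes, with 22.8% higher and 23.3% lower. The lists were written with earlier results on these data known. Of 38 other measured replication genes, 9 were higher and 9 lower (median -0.0022), shares close to those of all genes. RPA2, of the single-strand binding complex, and POLE3, a small accessory subunit of the polymerase whose catalytic gene POLE fell, rose by 0.40 and 0.41, while the helicase gene RECQL4 fell by 0.74 and ORC2 by 0.56. Of 17 genes of nucleotide and histone supply, 5 were called, a smaller share than the 46.1% of all genes: 4 rose, among them ASF1B (0.38), NME1 (0.20) and DUT (0.35), and HELLS fell (-0.18). Of 22 genes of E2F and G1/S control, 13 rose and 4 fell (median 0.23), led by the phosphatase CDC25A (0.64), which activates CDK2, the activator E2F2 (0.56) and the repressors E2F6 (0.59) and E2F8 (0.89). CDK inhibitors and growth arrest genes rose too, 7 of 11 with 1 lower (median 0.48): CDKN1B by 0.77, CDKN1A by 0.62, BTG2 by 0.98 and BTG1 by 0.63. Of 14 checkpoint genes, 5 rose, among them EXO1 (0.84), CHEK1 (0.46) and WEE1 (0.46), and 4 fell, among them BRCA1 (-0.47). The 30 mitosis genes had 9 higher and 10 lower and a median of 0.0045, with BIRC5 up by 0.40 and CENPE, CENPF and MKI67 at -0.81, -0.57 and -0.49. Within that list the rho with coding length was -0.81 across 30 genes, and with mRNA length -0.49.

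Within groups, the members did not move as a block from library to library. After group means were removed from log2 CPM, the median Pearson r over 666 pairs of members across 60 libraries was 0.0554, beside 0.0398 over 435 pairs of mitosis genes and -0.0018 over 382375 pairs among 875 genes spread over the table. The closest pairs were ORC6 with SLBP (r = 0.84, and 0.81 without wells B2 and A7), RRM1 with FEN1 (0.74) and TYMS with SLBP (0.72), and MCM7 with CDC6 (-0.56) and LIG1 with SLBP (-0.58) were among those that ran against each other. These are descriptions over libraries that share groups and a plate. A single component held 19.1% of the variance within groups over 8741 genes, and members lay at both of its ends, with r of 0.88 for PCNA, 0.79 for SLBP, 0.70 for CDC45, 0.69 for MCM2 and 0.68 for ORC6, and of -0.64 for MCM5, -0.61 for RFC4 and -0.58 for CDT1. The share of members with r beyond 0.5 in size was 27%, against 26.1% of all these genes. The libraries farthest out were well A7 (kynurenine, Medium 2), at the end of high MCM5 and low PCNA, with 85.23 CPM and 284.3 CPM, and well G2 (hemin, Medium 1) at the other. The component was computed after the data were seen, and its part in the differences between groups was not tested.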

How the data were processed

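The deposited table holds estimated counts per gene from the authors, in 60 columns named by group and well. Per the labels' protocols, libraries were made from 48 ng of RNA with a QuantSeq 3' FWD kit that adds unique molecular identifiers, using 18 PCR cycles, and the molecule label reads cytoplasmic RNA. The tools named, per the submitters' processing notes, are Salmon 1.5.2, STAR, cutadapt 3.4, UMI-tools 1.1.2 and FastQC 0.11.9, with the GRCh38 build. Neither the annotation nor the handling of reads that match several genes is stated in the labels or files. The counts, 21.4% of nonzero values not whole, were rounded. Genes were filtered (filterByExpr, minimum count 10, minimum total 15), scaled by TMM and fitted with edgeR 4.0.16 in R 4.3.3 as 12 group means with 48 residual degrees of freedom. Two-sided quasi-likelihood F-tests were made for 26 comparisons, with Benjamini-Hochberg adjustment over 11298 genes at 0.05. DESeq2 1.42.0 was an alternative. Subunit ratios used log2 of CPM plus 1. The script was tested on simulated data. Members, lists and tests were chosen with earlier results of these data known. Named in full were members past the threshold in the averaged comparison or in at least 2 single ones, plus the most abundant uncalled member of each role. Other lists show up to 4 examples with the smallest p.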

Additional observations from a re-analysis of the deposited data

Results flagged for a closer look

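Of 108 groups of 5 libraries examined for 1 library far from the other 4, 3 held one, while chance gives about 1 in 20. The mean log2 CPM of the 37 members in spheroids with hemin plus kynurenine in Medium 1 was 6.228 in well E4, against 6.322 to 6.342 in the other libraries. CDC6 with hemin in Medium 1 was at 70.43 CPM in well G2, against 117.3 to 125.1 CPM. SLBP in untreated spheroids of Medium 2 was at 96.08 CPM in well H4, against 136.2 to 147.9 CPM. No test of a different response between media passed for any member in edgeR, and DESeq2 called 1, RRM2 with hemin plus kynurenine.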

How the results depend on the processing

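No paired analysis was possible because the columns carry a well and no replicate number. No called log2 fold change of a member reversed under the alternatives run, while 6 uncalled ones changed sign in the average under total-count scaling, of which MCM3 was then called lower. With total-count scaling, chosen after the scaling factors were seen, members higher and lower between media numbered 6 and 6 with hemin, 9 and 2 with hemin plus kynurenine, 3 and 2 with kynurenic acid; 2 were higher untreated, and 9 were lower in the average, 2 with butyrate and 1 with kynurenine. Over all genes the averaged counts then went from 2577 higher and 2637 lower to 1315 and 4162, and those with hemin from 1422 and 1283 to 725 and 2330. With upper-quartile scaling, 7 were higher with hemin and 3 untreated, and 1 was lower with the combination and 1 with kynurenine. RLE scaling and a plate row term each gave 1 lower member with the combination, and leaving out wells B2 and A7 gave 1 with kynurenine. With no filter, 7 were higher with hemin and 2 untreated, 0 lower with kynurenic acid and 0 untreated, and 0 higher with the combination against untreated in Medium 2. With the compared groups fitted alone, 1 was higher with hemin in Medium 1, 0 with the combination in Medium 2, 1 lower between media with the combination and 2 untreated. DESeq2 called 1 higher with hemin in Medium 1, 1 in the difference of responses to the combination and 2 lower between media with the combination.

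Leaving out 1 library gave, between media, 7 to 11 higher members with hemin (7 without D6), 10 to 14 with the combination, 6 to 8 with kynurenic acid, 5 to 8 with kynurenine, 3 to 5 with butyrate, 3 to 6 untreated (3 without D1) and 18 to 20 in the average, where 3 to 6 were lower. It gave 0 to 1 lower untreated, with kynurenine, kynurenic acid or the combination, and against untreated 0 to 3 higher with hemin in Medium 1 (3 without G2) and 0 to 1 with the combination in Medium 2. The motif counts fell from 16 windows to 10 with TTTCCCGC alone and 5 with TTTGGCGC alone, since fewer forms were searched. For the other changes the cause was not tested. Genes near the filter, such as POLD1 with a lowest count of 0, are limited by depth.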
